A study of Mus musculus with 20 samples.

Results

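Loss of Pck1 in the liver was set against the wild type in mice kept on a NASH diet, a feed that induces non-alcoholic steatohepatitis, and the difference was described over all expressed genes and over pathways. The comparison holds the 10 libraries labelled with that diet, of 20 in the series: 5 from Pck1-cKO mice (conditional knockout, called KO NASH here) and 5 from wild-type mice (WT NASH). Each library is whole-liver RNA of 1 mouse, sequenced on an Illumina instrument. Both groups had the diet for 24 weeks and were 31 to 33 weeks old; the 2 remaining groups, WT chow and KO chow, are the same genotypes at the same age on chow, 5 mice each. The series calls the knockout liver-specific; the labels give neither the promoter that drives the deletion, nor the strain, nor the sex. Pck1 encodes the cytosolic phosphoenolpyruvate carboxykinase, and the study asks what it does in diet-induced NASH at the level of the transcriptome.

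Phosphoenolpyruvate carboxykinase turns oxaloacetate into phosphoenolpyruvate, the step by which carbon leaves the TCA cycle towards glucose. The liver handles the same carbon in other ways: it burns fatty acids in mitochondria and peroxisomes under control of the receptor PPARα, makes fatty acids and sterols under the transcription factors SREBP1 and SREBP2, and stores triglyceride in droplets coated by perilipins and CIDE proteins. In steatohepatitis the stored fat comes with damage to hepatocytes, inflammation and the laying down of collagen by stellate cells.

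Values of single libraries are in the order of replicates 1 to 5. The libraries held 9958935 to 16193657 counts in WT NASH and 14238430 to 18366600 in KO NASH. The groups were not balanced in sex, which was read from Y-linked counts: WT NASH held 4 females and 1 male (replicate 4), and KO NASH 4 males and 1 female (replicate 2). WT NASH 4 also stood apart in other ways. It was the shallowest library of the series, its correlation of log2 CPM with the other WT NASH libraries went down to 0.869, against 0.968 to 0.98 among those 4, and its slope of expression on gene length was -0.257 against 0.01 to 0.194 in the other 9. Mitochondrially encoded genes took 15.3% of its counts, against 5.57% to 12% in the other 9. KO NASH 1 and 5 were closer to each other than any other pair (chi-square of their counts 7.82 per degree of freedom), which was still above sampling noise, and both were kept. Levels given as a ± value are the mean and SD of the 5 libraries of a group, and coordinates are those of GENCODE M21 on GRCm38. Values with sex as a term or without WT NASH 4 are given where stated, and the parts that sex, gene length and this library play in the results were not tested. In bulk liver, fewer cells of a type and less RNA per cell cannot be told apart.

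Of 14440 genes tested, 1393 were called, that is, passed edgeR's quasi-likelihood test at a Benjamini-Hochberg adjusted p under 0.05 (9.65%). In KO NASH 708 of them were higher (4.9%) and 685 lower (4.74%), and 1068 differed at least 2-fold. The shares of 4.9% and 4.74% are the background for each list count below. With sex as a term in the model 563 of the 1393 were called again (3.9%), 267 higher (1.85%) and 296 lower (2.05%). That term gives each gene 1 sex difference shared by all groups. A sex difference that is unequal between the genotypes is not modelled, and WT NASH holds only 1 male. The groups did not overlap at 2038 genes (14.1%), the KO above at 1108 (7.67%) and the WT above at 930 (6.44%). Of the 563, 451 did not overlap. Without WT NASH 4, and with no sex term in that fit, 433 of the 563 were called in the same direction. The median log2 fold change over all tested genes was 0.004, and 0.018 with sex as a term. TMM, the scaling of library sizes used here, sets most genes near 0, so these medians do not test the centre. The TMM factors were 0.683 to 1.101 in WT NASH and 1.132 to 1.319 in KO NASH. The count rested on single libraries as well: it was 888 and 908 without WT NASH 2 and 5, and 786, 837 and 714 without KO NASH 1, 3 and 5. The 563 became 98 without WT NASH 4, 177 without KO NASH 2, the only female in its group, and 335, 366 and 312 without KO NASH 1, 3 and 5.

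**Figure D1:**
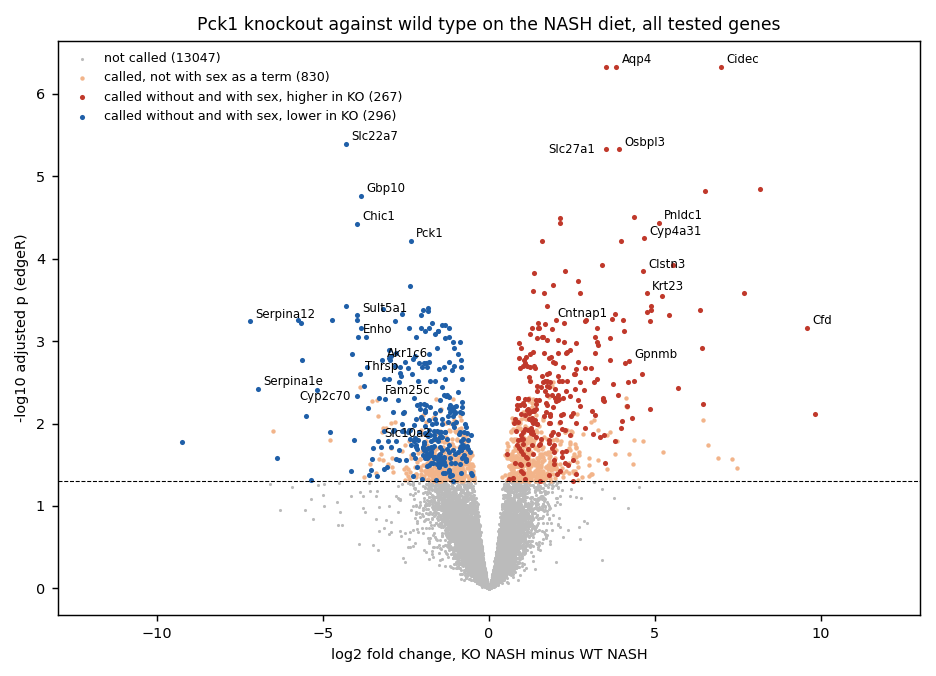
Each point is 1 of 14440 tested genes, with the log2 fold change of KO NASH over WT NASH on the x axis and -log10 of the edgeR adjusted p on the y axis; the dashed line is the threshold of 0.05. Red and blue points are the 267 higher and 296 lower genes called without and with sex as a term, and Cidec and Aqp4 lie at the top right with an adjusted p of 4.73e-07 each.

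The targeted gene was read first. Pck1 (chr2:173153048-173159273, plus strand, GRCm38) stood at 2543, 1888, 2975, 1701 and 2344 CPM in WT NASH and 515, 518, 348, 300.4 and 542 CPM in KO NASH. The 5 KO libraries were under the lowest WT library, at a mean of 19.4% of the WT mean. At Pck1 the log2 fold change was -2.36 ± 0.29 SE (adjusted p = 6.13e-05), and with sex -2.15 (adjusted p = 0.00088). The table counts whole genes, so it does not show whether the remaining reads cover the deleted part or come from cells in which Pck1 was not deleted.

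Genes of fat storage were raised. Of 17 tested genes for droplet proteins and lipases, 8 were raised and none lowered, against 4.9% and 4.74% over all genes; 7 were raised also with sex as a term, and the median log2 fold change was 1.09. The strongest was Cidec (chr6:113424634-113435760, minus strand), which encodes the droplet protein that fuses small droplets into large ones (FSP27). It stood at 0.904, 0.534, 0.787, 0.588 and 1.61 CPM in WT NASH and 121, 77.6, 146, 104 and 124 CPM in KO NASH. The lowest KO library was far above the highest WT library (log2 fold change 6.98 ± 0.57 SE, adjusted p = 4.73e-07, and 6.66, adjusted p = 5.03e-06, with sex as a term), and the call held whichever of the 20 libraries was left out.

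Fitm2 and Fitm1 encode the proteins that help droplets bud from the endoplasmic reticulum. Fitm2 stood at 27, 21, 20.8, 9.86 and 24.9 CPM in WT NASH and 72, 71.6, 109.8, 83.8 and 82 CPM in KO NASH, with no overlap. At Fitm2 the log2 fold change was 2.01 ± 0.31 SE (adjusted p = 0.000563). Fitm1 rose from 5.17 ± 3.25 to 36.6 ± 19.5 CPM. At Fitm1 the log2 fold change was 2.86 ± 0.57 SE (adjusted p = 0.00396). Plin4, a perilipin of the droplet coat, had 21.2, 9.2, 13, 3.09 and 19.95 CPM in WT NASH and 24.2, 48.2, 56.1, 79.5 and 25.5 CPM in KO NASH, so that its lowest KO value was above its highest WT value. At Plin4 the log2 fold change was 1.80 ± 0.44 SE (adjusted p = 0.0159). The gene of the droplet enzyme Hsd17b11 rose (log2 fold change 1.75, adjusted p = 0.0025). Lipases rose beside the coat proteins: Lipe, hormone-sensitive lipase, had 11.1, 9.85, 10.5, 6.47 and 9.43 CPM in WT NASH and 32.2, 27.3, 41.2, 31.5 and 34.9 CPM in KO NASH (log2 fold change 1.81 ± 0.32 SE, adjusted p = 0.00161), and Pnpla2, adipose triglyceride lipase, rose (log2 fold change 1.58, adjusted p = 0.0412), as did its inhibitor G0s2 (log2 fold change 2.14, adjusted p = 0.0374). The last 2 calls were less firm. That of Pnpla2 was lost when WT NASH 1, 2, 3, 4 or 5 or KO NASH 1, 2, 3 or 5 was left out (adjusted p up to 0.097), and that of G0s2 was lost when WT NASH 1, 2, 3, 4 or 5 or KO NASH 2, 3 or 4 was left out (adjusted p up to 0.0871). Plin2, the most abundant perilipin of liver, was at 319 ± 35.9 CPM in WT NASH and 652 ± 204 CPM in KO NASH and was not called. At Plin2 the log2 fold change was 1.03 ± 0.40 SE (adjusted p = 0.107).

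Some genes of fatty acid uptake and of triglyceride synthesis were raised too. Of 16 uptake and binding genes 4 rose and none fell (median 0.46), 2 of them also with sex as a term. Slc27a1 (chr8:71568882-71587302, plus strand), the transporter FATP1, which is best known from muscle and fat, stood at 11.9, 12, 9.44, 2.35 and 10.6 CPM in WT NASH and 92.1, 105, 139.6, 102 and 101 CPM in KO NASH. The lowest of all was WT NASH 4, and every KO library lay above every WT library. At Slc27a1 the log2 fold change was 3.53 ± 0.34 SE (adjusted p = 4.71e-06), and with sex 3.73 (adjusted p = 3.78e-05). Cd36, the scavenger receptor that takes up fatty acids, had 108, 216, 196, 74.7 and 147 CPM in WT NASH and 532, 447, 613, 538 and 453 CPM in KO NASH, again with no overlap. At Cd36 the log2 fold change was 1.80 ± 0.45 SE (adjusted p = 0.017). Lpl, lipoprotein lipase, rose (log2 fold change 2.59, adjusted p = 0.0176). The Lpl call was lost when KO NASH 1 or 5 was left out (adjusted p up to 0.0618); without KO NASH 1 its value was 1.99. Only 2 of the 4 calls were left without KO NASH 5.

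Of 16 genes of triglyceride synthesis 4 rose and none fell, and the median was 0.56. Mogat1, a monoacylglycerol acyltransferase, stood at 0.323, 0.593, 0.303, 0.294 and 0.258 CPM in WT NASH and 3.03, 5.17, 7.7, 12.4 and 2.86 CPM in KO NASH (log2 fold change 4.08 ± 0.66 SE, adjusted p = 0.000759), and it was the only one of the 4 called with sex as a term. Its WT levels correspond to few reads, and the KO libraries were all above them. Agpat9 (current symbol Gpat3), which adds the first acyl chain to glycerol phosphate, rose from 12.8 ± 6.31 to 38.6 ± 9.48 CPM (log2 fold change 1.58 ± 0.39 SE, adjusted p = 0.016; 1.70, adjusted p = 0.0564, with sex), Lpin2, a phosphatidate phosphatase (log2 fold change 1.02, adjusted p = 0.0146), and Dgat1, which makes triglyceride from diglyceride (log2 fold change 0.67, adjusted p = 0.0156). These 4 calls held with each library left out, with adjusted p up to 0.0489.

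The largest rise under the rule for named genes was that of Cfd (chr10:79890853-79892655, plus strand), which encodes adipsin, a serine protease of the complement system best known from fat cells. WT NASH held 1 read of it in all, and KO NASH 1703, of which 158, 84, 118, 1135 and 208 were in replicates 1 to 5. The ratio of the group totals scaled to library size was 1144, with a 95% counting interval of 205 to 45218 that covers counting error only. All 5 KO libraries had it and 4 of 5 WT libraries had none, and KO NASH 4 carried most of the reads (edgeR adjusted p = 0.000687; fitted log2 fold change 9.58, 8.31 without KO NASH 4 and 11.1 without WT NASH 1). Fat tissue in the sample was looked for with 7 markers, Cfd among them. The summed level of the 6 markers other than Cfd was 17.3 to 58.1 CPM in WT NASH and 26.7 to 51.9 CPM in KO NASH, and 29.9 CPM in KO NASH 4. Lep had no read in any of the 10 libraries, and Adipoq had 29 reads in WT NASH and 8 in KO NASH. Plin1 had 17 and 3 reads, Retn 0 and 6, and Fabp4 1496 and 3306. Adrb3, the β3-adrenergic receptor, had 196 and 826 reads and was raised (log2 fold change 1.53, adjusted p = 0.0327). The Adrb3 call was lost when WT NASH 2, 3 or 4 or KO NASH 1, 3 or 5 was left out (adjusted p up to 0.0816). Of the 3 markers that passed the filter on low counts, Cfd and Adrb3 were called. Cfd is the gene in question and, with 1 read in WT NASH, passed that filter only through other groups. Its own call therefore adds nothing to the check. The part of fat tissue in the Cfd result was not tested.

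Genes of fatty acid oxidation and ketogenesis leaned upward. All 33 tested members had a positive log2 fold change, with a median of 0.98; 9 were called raised and 5 of them also with sex as a term. At 21 of the 33 all 5 KO libraries lay above all 5 WT libraries, against 7.67% over all genes. WT NASH 4 was the lowest WT library at many of them, and without it 8 were raised and the median was 0.76.

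Peroxisomal genes were among those raised. Ehhadh, the bifunctional enzyme of peroxisomal β-oxidation, stood at 444, 387, 391, 183 and 351 CPM in WT NASH and 1799, 1844, 3734, 1818 and 1694 CPM in KO NASH. The KO libraries were all above the WT libraries, at a mean of 620.1% of the WT mean. At Ehhadh the log2 fold change was 2.63 ± 0.48 SE (adjusted p = 0.00216), and with sex 2.55 (adjusted p = 0.017). Acaa1a, the thiolase that ends the cycle, rose from 85.4 ± 26.5 to 205 ± 36.2 CPM. At Acaa1a the log2 fold change was 1.26 ± 0.29 SE (adjusted p = 0.0113). Of the mitochondrial genes, Acot2, a thioesterase that releases fatty acids from coenzyme A, rose from 3.68 ± 2.27 to 40.9 ± 17 CPM. At Acot2 the log2 fold change was 3.44 ± 0.70 SE (adjusted p = 0.00486), and with sex 4.17 (adjusted p = 0.00555). Acadvl, the very-long-chain acyl-CoA dehydrogenase, rose (log2 fold change 1.64, adjusted p = 0.00822). Each of these genes was called also with sex as a term, and each call held with every library left out in turn.

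The microsomal ω-hydroxylases of the Cyp4a family are textbook targets of PPARα. Of 6 genes of the family that were tested 3 rose, Cyp4a31, Cyp4a32 and Cyp4a14, and Cyp4a10, Cyp4a12a and Cyp4a12b were not called; Cyp4a32 was named after its value was seen (log2 fold change 2.29, adjusted p = 0.000143). Cyp4a31 (chr4:115563649-115579015) stood at 16.1, 8.6, 11.8, 0.736 and 19.3 CPM in WT NASH and 268, 143, 531, 215 and 293 CPM in KO NASH. WT NASH 4 was the lowest WT library by far, and the KO libraries were above all WT libraries. At Cyp4a31 the log2 fold change was 4.67 ± 0.56 SE (adjusted p = 5.68e-05), and with sex 4.33 (adjusted p = 0.000991). Cyp4a14 had 1904, 535, 989, 5.0 and 686 CPM in WT NASH and 3799, 3525, 9655, 5369 and 3657 CPM in KO NASH (log2 fold change 2.66 ± 0.74 SE, adjusted p = 0.0294); it was not called with sex as a term (3.22, adjusted p = 0.072). The Cyp4a14 call was lost when WT NASH 2 or 5 or KO NASH 3 was left out (adjusted p up to 0.0743). The 3 remaining called genes, of carnitine transport and enoyl-CoA isomerases, were less firm, and of the list's 9 calls 5 held with every library left out. Cpt1a, the gate of mitochondrial entry, had a log2 fold change of 0.88 ± 0.30 SE (adjusted p = 0.0644); it was not called, though the groups did not overlap.

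Ppara itself was not called. At Ppara the log2 fold change was 0.41 ± 0.34 SE (adjusted p = 0.494). Fgf21, a hormone that PPARα induces, was at 4.58, 3.74, 3.09, 0 and 4.78 CPM in WT NASH and 7.5, 9.92, 24.3, 8.77 and 8.48 CPM in KO NASH, the KO above the WT throughout (log2 fold change 1.82 ± 0.55 SE, adjusted p = 0.0423; 2.79, adjusted p = 0.021, with sex). The Fgf21 call was lost when WT chow 3, WT NASH 2, 3 or 5 or KO NASH 1, 2, 3, 4 or 5 was left out (adjusted p up to 0.137). Esrra, the orphan receptor ERRα that governs mitochondrial genes, rose from 13.7 ± 3.21 to 34.7 ± 2.09 CPM. At Esrra the log2 fold change was 1.34 ± 0.18 SE (adjusted p = 0.000245), and with sex 1.43 (adjusted p = 0.00111).

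**Figure D2:**
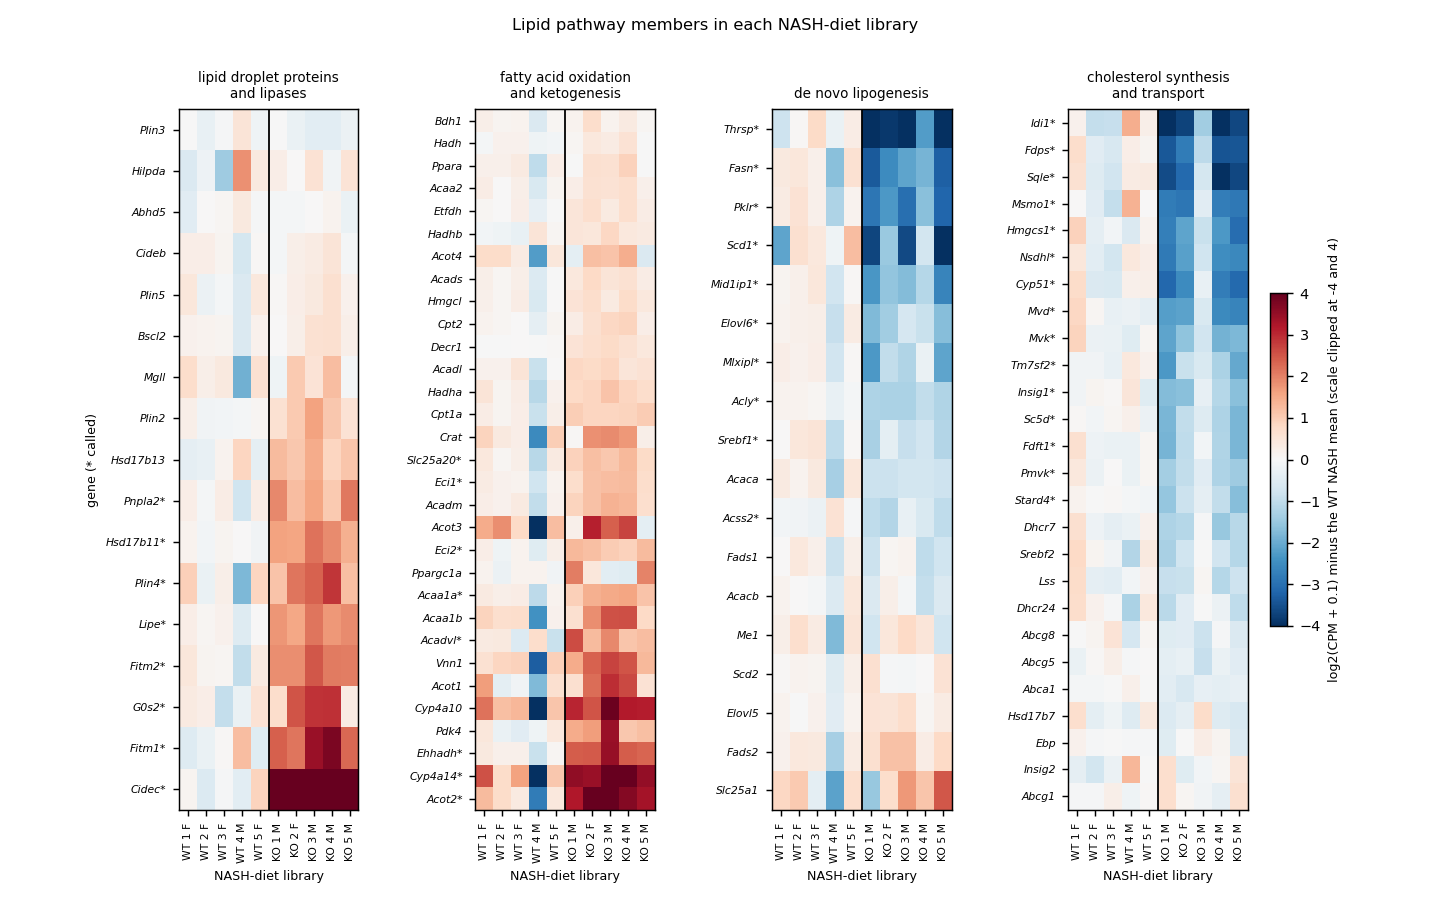
Each row is a gene of 1 of 4 lipid lists, ordered by log2 fold change, and each column a NASH-diet library (WT 1 to 5, then KO 1 to 5, F female and M male); colour gives log2(CPM + 0.1) minus the WT NASH mean, and an asterisk marks a called gene. Cidec and Ehhadh are red in all 5 KO libraries, WT 4 is blue at many oxidation genes, and KO 3 is the palest KO library at most called genes of the cholesterol list.

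Synthesis ran the other way. Of 18 genes of de novo lipogenesis 10 fell and none rose (median -0.96), and 6 fell also with sex as a term. Of 29 genes of cholesterol synthesis and transport 17 fell and none rose (median -1.08), 28 of the 29 had a negative value, and 5 fell also with sex. The background was 4.74% of all genes called lower. The lipogenesis count was 6 without KO NASH 1 and 6 without KO NASH 5, and the cholesterol count was 11 without WT NASH 5, 8 without KO NASH 1, 9 without KO NASH 2, 9 without KO NASH 4 and 7 without KO NASH 5. Without WT NASH 4 the counts were 10 and 13.

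Promoters are shown for 3 lowered genes of these lists and, beside them, for Ehhadh, which rose, because CCAAT boxes, which the factor NF-Y binds, are known from promoters of SREBP targets. The windows are the 250 bases before a RefSeq transcription start in GRCm38.p6, at chr13:119690101-119690350 (plus strand) for Hmgcs1, chr13:8885356-8885605 (plus strand) for Idi1, chr11:120824548-120824797 (minus strand) for Fasn and chr16:21787835-21788084 (minus strand) for Ehhadh. They read 5′ to 3′ in the direction of the gene; capitals mark CCAAT on either strand (ATTGG on the opposite one) and TCACNCCAC, a form of the sterol regulatory element, likewise on both strands.
Hmgcs1: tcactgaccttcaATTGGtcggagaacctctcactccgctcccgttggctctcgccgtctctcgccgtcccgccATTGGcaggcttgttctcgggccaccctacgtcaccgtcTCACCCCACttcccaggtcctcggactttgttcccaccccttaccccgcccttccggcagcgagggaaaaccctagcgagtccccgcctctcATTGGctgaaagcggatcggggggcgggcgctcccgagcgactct
Idi1: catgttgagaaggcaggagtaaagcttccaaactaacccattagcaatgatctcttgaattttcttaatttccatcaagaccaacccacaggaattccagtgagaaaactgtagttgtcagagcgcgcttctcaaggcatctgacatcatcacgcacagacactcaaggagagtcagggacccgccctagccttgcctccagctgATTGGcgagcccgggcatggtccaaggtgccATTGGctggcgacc
Fasn: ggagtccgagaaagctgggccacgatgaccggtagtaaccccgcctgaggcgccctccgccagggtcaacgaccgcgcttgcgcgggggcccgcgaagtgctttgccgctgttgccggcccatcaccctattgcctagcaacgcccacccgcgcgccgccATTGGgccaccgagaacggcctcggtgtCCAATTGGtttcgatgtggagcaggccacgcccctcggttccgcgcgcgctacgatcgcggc
Ehhadh: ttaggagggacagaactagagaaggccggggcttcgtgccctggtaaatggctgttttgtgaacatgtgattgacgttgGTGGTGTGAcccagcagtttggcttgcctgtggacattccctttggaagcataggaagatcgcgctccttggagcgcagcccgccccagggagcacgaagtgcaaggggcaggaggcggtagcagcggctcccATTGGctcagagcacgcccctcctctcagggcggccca
A CCAAT was in 18 of 26 windows of the cholesterol list (69.2%; 18 of 20 genes with an entry), in 11 of 20 windows of the lipogenesis list (55%), in 13 of 26 of the oxidation list (50%) and in 6 of 25 of the droplet list (24%), against 33.8% of 32851 windows in all. TCACNCCAC was in 1 window of each of the first 3 lists, in none of the droplet list, and in 1.05% of all windows. The direct repeat 1 of PPAR type, searched as AGGNCA, any base and AGGNCA again, was in none of the windows of the 4 lists and in 0.338% of all windows. The motifs were searched on both strands; CCAAT and its reverse overlap in the Fasn window.

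Fasn, fatty acid synthase, stood at 333, 349, 291, 80.03 and 391 CPM in WT NASH and 24.9, 43.9, 59.2, 70.3 and 26.6 CPM in KO NASH. Each KO value was under each WT value, and WT NASH 4 was the lowest WT library. At Fasn the log2 fold change was -2.68 ± 0.49 SE (adjusted p = 0.00207), and with sex -2.27 (adjusted p = 0.0411). Pklr, liver pyruvate kinase and a target of the carbohydrate-responsive factor ChREBP, fell from 122 ± 44.5 to 19.8 ± 9.36 CPM. At Pklr the log2 fold change was -2.62 ± 0.39 SE (adjusted p = 0.000465), and with sex -1.82 (adjusted p = 0.00622). Thrsp (Spot 14; chr7:97412938-97417730), a lipogenic nuclear protein, had 47.8, 88.3, 144, 71.1 and 104 CPM in WT NASH and 2.09, 5.73, 3.29, 18 and 1.5 CPM in KO NASH. At Thrsp the log2 fold change was -3.90 ± 0.73 SE (adjusted p = 0.00251). KO NASH 4 was its highest KO library, and the value without it was -4.85. Its relative Mid1ip1 fell (log2 fold change -1.85, adjusted p = 0.000434). Acly, which makes cytosolic acetyl-CoA from citrate, fell from 188 ± 23.5 to 81.9 ± 6.88 CPM. At Acly the log2 fold change was -1.20 ± 0.20 SE (adjusted p = 0.000895).

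The transcription factors of lipogenesis fell too: Srebf1 (log2 fold change -0.97, adjusted p = 0.0417) and Mlxipl, which encodes ChREBP (log2 fold change -1.23, adjusted p = 0.0231), and neither was called with sex as a term. The call of Srebf1 was lost when WT chow 1, WT NASH 1, 2, 3 or 5 or KO NASH 1, 3, 4 or 5 was left out (adjusted p up to 0.109); in males alone, with 1 WT library, its value was 0.03. The call of Mlxipl was lost when KO NASH 1, 3 or 5 was left out (adjusted p up to 0.0703). Scd1, stearoyl-CoA desaturase, had 359.7, 2425, 2111, 1401 and 3671 CPM in WT NASH and 122, 559, 129.8, 937 and 96.8 CPM in KO NASH, and the groups overlapped through WT NASH 1 and KO NASH 4 (log2 fold change -2.43 ± 0.71 SE, adjusted p = 0.036). The Scd1 call was lost when WT NASH 2, 3 or 5 or KO NASH 1, 3 or 5 was left out (adjusted p up to 0.093). Elovl6, which elongates palmitate, fell (log2 fold change -1.29, adjusted p = 0.00974). Acaca, acetyl-CoA carboxylase 1, was not called. At Acaca the log2 fold change was -0.94 ± 0.35 SE (adjusted p = 0.0972).

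In the mevalonate and sterol pathway the drop was seen from its first steps on. Hmgcs1, which makes HMG-CoA, stood at 705, 288, 340.0, 249 and 405 CPM in WT NASH and 55, 85.6, 202, 74.7 and 45 CPM in KO NASH. Each KO library lay below each WT library, and KO NASH 3 was the least lowered. At Hmgcs1 the log2 fold change was -2.10 ± 0.38 SE (adjusted p = 0.00187), and with sex -1.93 (adjusted p = 0.0195). Fdps, farnesyl diphosphate synthase, fell from 135 ± 51.1 CPM to 23 ± 21.8 (log2 fold change -2.55 ± 0.46 SE, adjusted p = 0.00178; -2.55, adjusted p = 0.00797, with sex), and without KO NASH 3 its value was -3.33. Idi1, isopentenyl diphosphate isomerase, had 49, 22.4, 22.6, 120.05 and 51.1 CPM in WT NASH and 2.26, 3.25, 16.3, 2.44 and 3.4 CPM in KO NASH. Its KO NASH 3 library stood at several times the other 4 but still below the WT range (log2 fold change -3.27 ± 0.87 SE, adjusted p = 0.0232; -3.11, adjusted p = 0.0567, with sex). The Idi1 call was lost when WT NASH 4 or KO NASH 1, 2, 4 or 5 was left out (adjusted p up to 0.0669); without KO NASH 3 the value was -4.21. Pmvk, of the early pathway, fell (log2 fold change -1.08, adjusted p = 0.00692), Nsdhl, of the late pathway (log2 fold change -2.04, adjusted p = 0.00843), and Cyp51, lanosterol demethylase (log2 fold change -1.97, adjusted p = 0.0168). Cyp51 was the only one of these 3 whose call was lost, by a narrow margin, without KO NASH 5 (adjusted p = 0.0518); its value without KO NASH 3 was -2.96.

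Srebf2, the gene of the sterol-sensing transcription factor, had a log2 fold change of -0.87 ± 0.33 SE (adjusted p = 0.0983) and was not called. Further called members, Mvk, Mvd, Fdft1, Sqle, Sc5d, Msmo1, Tm7sf2, Insig1 and Stard4, had log2 fold changes between -2.49 and -1.01. Of the 17 calls, 7 held with each of the 20 libraries left out.

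Of 22 bile acid genes 1 rose and 5 fell, beside 4.9% and 4.74% of all genes tested. With sex as a term 2 of the 5 were called again and the 1 that rose was not. The median of -0.69 became -0.10 without WT NASH 4 and -0.23 with sex. Cyp2c70 (chr19:40153353-40187333), which makes the muricholic acids of mice, had 368, 598, 472, 3650.2 and 883 CPM in WT NASH and 65.1, 142, 26.5, 86.8 and 55.9 CPM in KO NASH. The highest library was WT NASH 4, the groups did not overlap (log2 fold change -3.99 ± 0.80 SE, adjusted p = 0.00464; -3.99, adjusted p = 0.00886, with sex), and without that library the value was -2.95. Cyp27a1, the first enzyme of the alternative pathway, fell from 348 ± 38.6 to 190.1 ± 39.5 CPM. At Cyp27a1 the log2 fold change was -0.87 ± 0.21 SE (adjusted p = 0.0126). Cyp8b1, the 12α-hydroxylase that gives cholic acid, rose from 239 ± 32.2 to 546 ± 328 CPM (log2 fold change 1.19 ± 0.29 SE, adjusted p = 0.0145). The Cyp8b1 call was lost when KO NASH 3 was left out (adjusted p up to 0.0504), and it was not made with sex as a term (0.96, adjusted p = 0.102). The export pump Abcb11 fell (log2 fold change -1.25, adjusted p = 0.0171). The Abcb11 call was lost when KO NASH 1 or 5 was left out (adjusted p up to 0.0546). Cyp7a1, the rate-limiting enzyme, was not called. At Cyp7a1 the log2 fold change was -0.77 ± 0.60 SE (adjusted p = 0.45). The count of 6 was 3 without KO NASH 1, 3 without KO NASH 3 and 3 without KO NASH 5.

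Of 15 transporters of organic ions 2 rose and 3 fell, beside 4.9% and 4.74% of all genes tested. With sex as a term 1 of each was called again, and the median of -0.56 became 0.07. The change in Slc22a7 (chr17:46432183-46438457), the organic anion transporter OAT2, had the smallest adjusted p among the lowered named genes. It had 61.5, 29.9, 34.9, 43.8 and 31.5 CPM in WT NASH and 1.79, 2.44, 1.06, 3.07 and 1.63 CPM in KO NASH. Every WT library was far above every KO library. At Slc22a7 the log2 fold change was -4.32 ± 0.41 SE (adjusted p = 4.03e-06), and with sex -4.36 (adjusted p = 2.53e-05). Slc22a5, the carnitine transporter OCTN2, had 32.6, 25.3, 29.9, 12.9 and 31.4 CPM in WT NASH and 69.8, 109, 165, 114 and 71.6 CPM in KO NASH, with no overlap. At Slc22a5 the log2 fold change was 2.00 ± 0.36 SE (adjusted p = 0.00184), and with sex 1.95 (adjusted p = 0.0137). Slc10a2, which is not among the 15, encodes the sodium-dependent bile acid transporter, which bile duct cells carry in liver. It stood at 42.7, 54.9, 93.1, 496 and 67 CPM in WT NASH and 11.6, 13.6, 11.9, 26.7 and 10.7 CPM in KO NASH. At Slc10a2 the log2 fold change was -3.33 ± 0.83 SE (adjusted p = 0.0162). WT NASH 4 was at several times the other WT libraries, and without it the value was -2.11 with an adjusted p of 0.0687. The transporter count of 5 was 3 without WT NASH 1, 3 without WT NASH 2, 2 without WT NASH 5, 2 without KO NASH 1, 3 without KO NASH 3, 3 without KO NASH 4 and 2 without KO NASH 5.

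Of 34 cytochromes P450 of drug metabolism none rose and 5 fell, all 5 also with sex. Their median of -0.84 became -0.415 with sex as a term. Of 14 pericentral genes, which are normally expressed around the central vein, none rose and 6 fell (median -0.81), 4 with sex. Over all genes tested 4.74% were called lower, and 2.05% were called lower without and with sex. Cyp1a2, in both lists, fell from 285 ± 48.5 to 74.2 ± 39.3 CPM. At Cyp1a2 the log2 fold change was -1.94 ± 0.42 SE (adjusted p = 0.00684). Avpr1a, the vasopressin receptor of pericentral hepatocytes, had 55.3, 36.2, 34.3, 56.6 and 47.8 CPM in WT NASH and 13.9, 13.8, 9.13, 4.07 and 14 CPM in KO NASH; the KO libraries all lay below. At Avpr1a the log2 fold change was -2.07 ± 0.31 SE (adjusted p = 0.000479), and with sex -1.99 (adjusted p = 0.00229). Gulo, the last enzyme of vitamin C synthesis, fell (log2 fold change -1.37, adjusted p = 0.00449), Cyp2c37 (log2 fold change -2.19, adjusted p = 0.0087) and Cyp2d40 (log2 fold change -1.95, adjusted p = 0.00187). Cyp2c55 had 2.2, 2.31, 3.87, 41.2 and 1.42 CPM in WT NASH and 1.07, 1.45, 1.3, 2.16 and 1.45 CPM in KO NASH. At Cyp2c55 the log2 fold change was -2.73 ± 0.76 SE (adjusted p = 0.0274). The highest library by far was WT NASH 4, and without it the value was -0.72 with an adjusted p of 0.36. The Cyp2c55 call was lost when WT NASH 4 or KO NASH 1, 2, 3 or 5 was left out (adjusted p up to 0.36). Glul, glutamine synthetase, fell (log2 fold change -0.75, adjusted p = 0.0385). The Glul call was lost when WT NASH 1, 2 or 5 or KO NASH 1, 3, 4 or 5 was left out (adjusted p up to 0.105). The P450 count of 5 was 8 without KO chow 2, 8 without KO chow 5, 3 without KO NASH 1, 8 without KO NASH 2, 3 without KO NASH 3 and 3 without KO NASH 5, and it was 6 lower and 1 higher without WT NASH 4. In the periportal list 2 of 13 rose and 2, Pck1 among them, fell, beside 4.9% and 4.74% of all genes tested. With sex as a term 1 of each was called again. The periportal count of 4 was 2 without WT NASH 2, 2 without WT NASH 4, 2 without WT NASH 5, 1 without KO NASH 1 and 1 without KO NASH 5.

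Etnppl, which breaks down phosphoethanolamine and is periportal, stood at 72.5, 33.2, 41.8, 30.6 and 37.1 CPM in WT NASH and 301, 74.2, 167, 118 and 290.2 CPM in KO NASH. At Etnppl the log2 fold change was 2.14 ± 0.64 SE (adjusted p = 0.0388). The KO libraries were all above the WT libraries, but with sex as a term the value was 0.91, adjusted p = 0.492. The Etnppl call was lost when WT NASH 2, 3, 4 or 5 or KO NASH 1, 3 or 5 was left out (adjusted p up to 0.095).

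The most lowered named genes were a pair of serpins, and their levels spread widely within WT NASH. Serpina12 (chr12:104028769-104044443), which encodes the adipokine vaspin, had 14.5, 19.9, 13.5, 290.1 and 36.4 CPM in WT NASH and 0.0426, 0.598, 0.435, 1.34 and 0.0907 CPM in KO NASH. Serpina1e (chr12:103946931-103958975), a paralog of α1-antitrypsin, had 463, 49.1, 75.4, 6182 and 119 CPM in WT NASH and 18.2, 1.92, 9.0, 7.28 and 18.4 CPM in KO NASH. At both genes WT NASH 4, the male, stood far above the 4 WT females. The KO libraries, 4 of them male, lay below all WT libraries, which the naming rule required. The log2 fold changes were -7.21 (SE 1.11, edgeR adjusted p = 0.000577) and -6.97 (SE 1.38, edgeR adjusted p = 0.00381), and without WT NASH 4 -5.39 and -4.01 with adjusted p of 0.00056 and 0.00957; Serpina12 was at -7.99 without KO NASH 4. With sex as a term they were -7.29 and -7.66.

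Known sex-biased genes of liver were set beside this. The summed level of 15 male-biased genes, the major urinary proteins Mup7 and Mup20 and Hsd3b5 among them, was 87149 CPM in the WT male and 1310, 2604, 1761 and 1274 CPM in the 4 KO males, against 165 to 277 CPM in the 4 WT females and 224 CPM in the KO female. The KO males lay closer to the females than to the WT male, of which there is only 1. The 13 female-biased genes summed to 4.12 CPM in the WT male, 342 to 781 CPM in the KO males, 1724 to 5474 CPM in the WT females and 1277 CPM in the KO female. Cux2, a female-biased transcription factor of liver, fell (log2 fold change -5.19, adjusted p = 0.00389), and with sex as a term had -3.15, adjusted p = 0.0306; without KO NASH 2 it was -6.37. Selenbp2 (log2 fold change -4.79, adjusted p = 0.0126) and Moxd1 (log2 fold change -9.27, adjusted p = 0.0168) were called lower with all libraries, while without WT NASH 4 they were at -1.23 and 4.11 and not called. Of the 15 male-biased genes 2 were called lower and none higher with all libraries. Without WT NASH 4, 9 of the 15 were called higher and none lower, and their median log2 fold change turned from negative to positive. That fit sets 4 WT females against 4 KO males and the KO female. Esr1, the estrogen receptor α, fell in both fits: it stood at 50.1, 63.4, 46.3, 43.4 and 55.1 CPM in WT NASH and 10.6, 22.5, 9.25, 13.1 and 10.2 CPM in KO NASH, with no overlap. At Esr1 the log2 fold change was -1.98 ± 0.29 SE (adjusted p = 0.000417), and with sex -1.62 (adjusted p = 0.00129).

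Further genes with a WT male far above the WT females were Akr1c6 (chr13:4434306-4457877), a hydroxysteroid dehydrogenase, with 961, 2441, 1153, 7498 and 2342 CPM in WT NASH and 245, 329, 288, 482 and 189 CPM in KO NASH, and Enho, which encodes the secreted peptide adropin, with 36.7, 28.3, 17.7, 118 and 38.7 CPM in WT NASH and 1.83, 9.1, 1.06, 1.58 and 1.63 CPM in KO NASH. Both fell in KO NASH without overlap, with log2 fold changes of -3.23 (adjusted p = 0.00172) and -3.96 (adjusted p = 0.000895). Without WT NASH 4 the values were -2.49 and -3.30, and both were still called; Enho was at -4.95 without KO NASH 2. Fam25c, of unknown function, fell (log2 fold change -3.31, adjusted p = 0.00486), and its value was -3.91 without KO NASH 2.

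**Figure D3:**
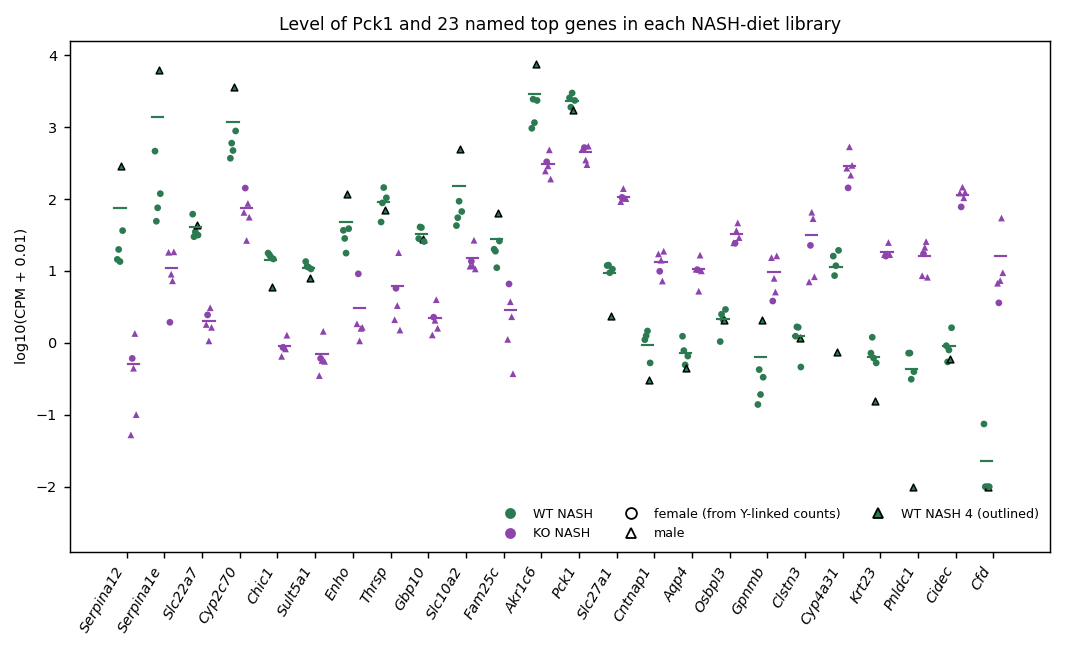
Levels of Pck1 and 23 named top genes in each NASH-diet library on a log10(CPM + 0.01) axis, genes ordered by log2 fold change; green, WT NASH; purple, KO NASH; circles, females; triangles, males; the outlined triangle is WT NASH 4 and bars are group means. At Serpina12, Serpina1e, Cyp2c70 and Slc10a2 the outlined triangle lies far above the WT circles.

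Around the reaction of Pck1 itself, few genes passed the test. Over all genes tested 4.9% were called higher and 4.74% lower. Of 12 genes of gluconeogenesis 2 fell and none rose (median -0.07): Pck1 and Foxo1, a transcription factor that insulin restrains (log2 fold change -1.10, adjusted p = 0.0176), whose call was lost when KO NASH 3 was left out (adjusted p up to 0.0516). G6pc, glucose-6-phosphatase, had a log2 fold change of -0.25 ± 0.31 SE (adjusted p = 0.661) and Pcx, pyruvate carboxylase, one of 0.42 ± 0.28 SE (adjusted p = 0.364), neither called. In the TCA cycle, 4 of 26 genes rose and none fell (median 0.29), and 10 had all KO libraries above all WT libraries, against 7.67% over all genes. Dlst, a subunit of the 2-oxoglutarate dehydrogenase complex, rose (log2 fold change 0.93, adjusted p = 0.00212) and was the only one called also with sex (0.86, adjusted p = 0.0179). Of the 4 calls 2, that of Dlst among them, held with every library left out.

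Of 26 genes of glycolysis and sugar entry 2 rose and 2 fell, beside 4.9% and 4.74% of all genes tested. Aldoa, the aldolase of muscle and most tissues, rose from 57.5 ± 2.77 to 125 ± 32.5 CPM (log2 fold change 1.12 ± 0.25 SE, adjusted p = 0.00876), and Pfkp, the platelet phosphofructokinase, from 4.59 ± 0.47 to 10.1 ± 4.84 CPM (log2 fold change 1.14 ± 0.32 SE, adjusted p = 0.0301). The Pfkp call was lost when WT NASH 2, 3, 4 or 5 or KO NASH 1 or 5 was left out (adjusted p up to 0.0941). Pklr fell, as described, and Khk, ketohexokinase, which starts fructose breakdown, fell (log2 fold change -1.11, adjusted p = 0.0409). The Khk call was lost when WT NASH 1, 2, 3, 4 or 5 or KO NASH 1, 2, 3 or 5 was left out (adjusted p up to 0.125). Of the 4 calls only that of Pklr was made also with sex. The count was 2 without WT NASH 2, 2 without WT NASH 5, 7 without KO chow 5, 2 without KO NASH 1 and 2 without KO NASH 5, and the TCA count of 4 was 2 without WT NASH 5, 2 without KO NASH 1, 2 without KO NASH 2 and 2 without KO NASH 5. The 8 genes of the urea cycle had a median log2 fold change of 0.10.

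Nuclear genes of oxidative phosphorylation gave 1 raised and 2 lowered of 57, beside 4.9% and 4.74% of all genes tested. In 13 of the 57 all KO values were above all WT values (7.67% of all genes tested), and in none was the reverse seen (6.44%). Their median of -0.53 moved to 0.01 without WT NASH 4, and then none was called; the count was 9 without WT NASH 1, 1 without WT NASH 2, 7 without WT NASH 3, 0 without WT NASH 4, 0 without WT NASH 5, 0 without KO NASH 1, 0 without KO NASH 3, 1 without KO NASH 4 and 1 without KO NASH 5. Uqcrc1, a core subunit of complex III, rose (log2 fold change 1.83, adjusted p = 0.0293). The Uqcrc1 call was lost when WT NASH 3, 4 or 5 or KO NASH 1 or 3 was left out (adjusted p up to 0.101). Uqcrb, a small subunit of the same complex, fell (log2 fold change -1.46, adjusted p = 0.0264). The Uqcrb call was lost when WT NASH 2, 4 or 5 or KO NASH 1, 3, 4 or 5 was left out (adjusted p up to 0.0936). WT NASH 4, the library with the negative slope on gene length, had 799 CPM of Uqcrb against 141 to 479 CPM in the other WT libraries.

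**Figure D4:**
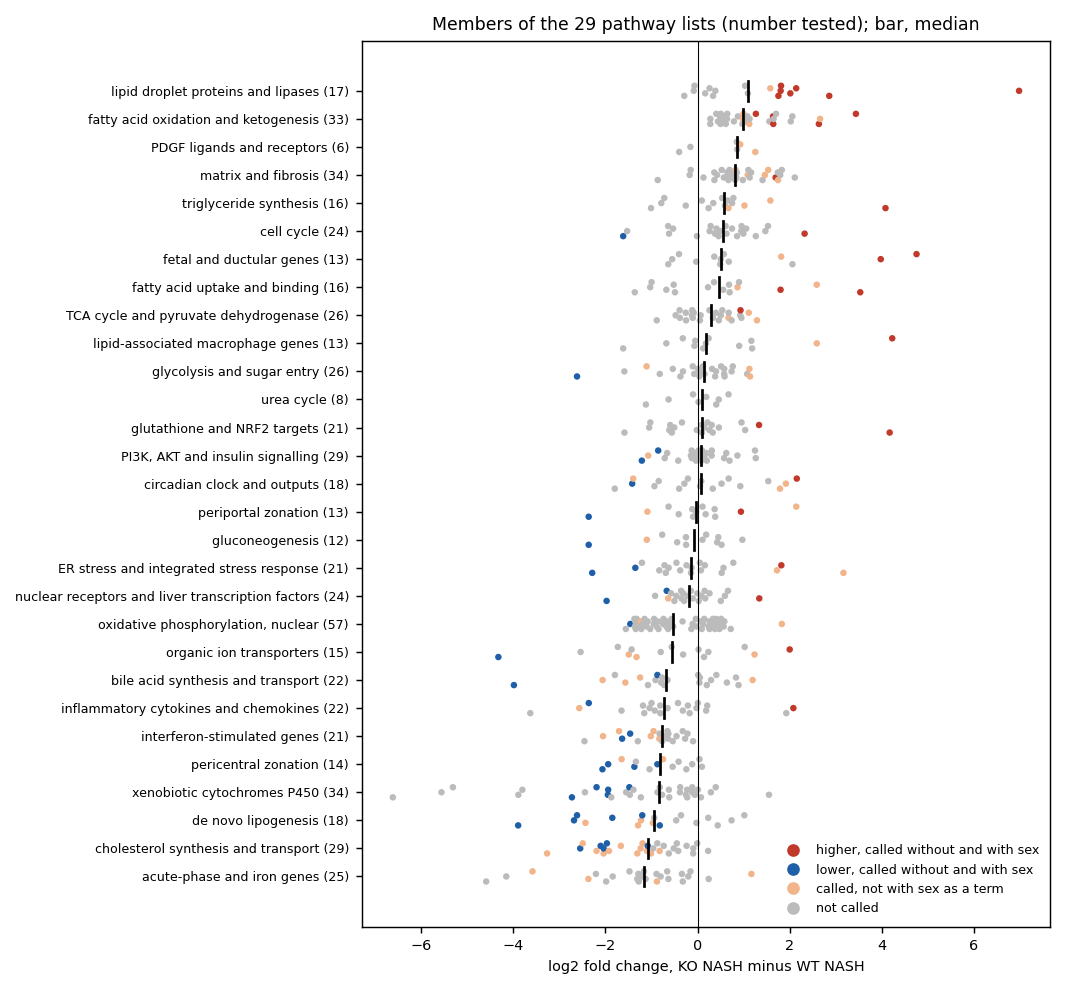
Log2 fold change of KO NASH over WT NASH for each tested member of the 29 pathway lists, with the number tested in brackets and the list median as a black bar; lists are ordered by median. Red and blue points were called without and with sex as a term, orange ones only without, grey ones not; the medians run from -1.17 for acute-phase and iron genes to 1.09 for droplet proteins and lipases.

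Matrix genes leaned upward. Of 34 genes 31 had a positive value (median 0.82), 6 were raised and none lowered, but only 1, Col4a1, was raised also with sex as a term. Col4a1 and Col4a2, the paired chains of basement membrane collagen, lie head to head on the genome. Col4a1 had 33.4, 26.4, 28.5, 26.9 and 29.4 CPM in WT NASH and 132, 65.3, 84.2, 56.6 and 129.6 CPM in KO NASH (log2 fold change 1.69 ± 0.34 SE, adjusted p = 0.00401; 1.40, adjusted p = 0.0438, with sex), and Col4a2 rose from 16.8 ± 3.12 to 56.3 ± 20.2 CPM. At Col4a2 the log2 fold change was 1.74 ± 0.43 SE (adjusted p = 0.0155), and with sex 1.43 (adjusted p = 0.109). At both, the KO libraries lay above all WT libraries. Timp3, an inhibitor of metalloproteinases, rose (log2 fold change 0.82, adjusted p = 0.0153). Col1a2, a chain of fibrillar collagen I, rose (log2 fold change 1.53, adjusted p = 0.0408). The Col1a2 call was lost when WT NASH 1, 2, 3 or 5 or KO NASH 1, 2 or 5 was left out (adjusted p up to 0.102). Its partner Col1a1 was at 5.49, 6.7, 4.48, 8.83 and 8.33 CPM in WT NASH and 23.2, 17.9, 7.45, 12.8 and 28 CPM in KO NASH and was not called. At Col1a1 the log2 fold change was 1.41 ± 0.52 SE (adjusted p = 0.0904). Of the 6 calls 3 held with every library left out. The count of 6 was 3 without WT NASH 1, 3 without WT NASH 3, 3 without KO NASH 1 and 3 without KO NASH 5.

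Platelet-derived growth factors drive the growth of stellate cells. Pdgfa, a ligand, rose from 2.65 ± 1.35 to 6.16 ± 1.28 CPM (log2 fold change 1.25 ± 0.31 SE, adjusted p = 0.0155), and its receptor gene Pdgfra from 8.82 ± 0.853 to 16.7 ± 6.3 CPM. At Pdgfra the log2 fold change was 0.92 ± 0.28 SE (adjusted p = 0.0412). With sex as a term the values were 1.06 (adjusted p = 0.0699) and 0.87 (adjusted p = 0.14), neither called, and the call of Pdgfra was lost when WT NASH 1, 2, 3, 4 or 5 or KO NASH 1, 3 or 5 was left out (adjusted p up to 0.12). Pdgfrb, the main receptor of stellate cells, was not called. At Pdgfrb the log2 fold change was 0.86 ± 0.36 SE (adjusted p = 0.141). The 9 stellate markers, Lrat and Des among them, summed to 141 to 205 CPM in WT NASH and 183 to 266 CPM in KO NASH. Of 8 endothelial markers 2 rose, led by Lyve1 of sinusoidal cells (log2 fold change 1.62, adjusted p = 0.00866), and the sum of the 8 was 218 to 302 CPM in WT NASH and 255 to 403 CPM in KO NASH. With sex in the model neither passed the threshold, and the count of 2 was 1 without WT NASH 2, 4 or 5 or KO NASH 1, 3 or 5. The part of these cell types in the matrix result was not tested.

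Interferon-stimulated genes leaned downward. All 21 had a negative value (median -0.77), 7 were lowered and none raised, and 2 were lowered also with sex. Isg15, a ubiquitin-like protein, had 12, 13.9, 16.5, 13.1 and 16.4 CPM in WT NASH and 5.33, 5.73, 3.79, 3.5 and 4.72 CPM in KO NASH, the KO below the WT throughout. At Isg15 the log2 fold change was -1.64 ± 0.27 SE (adjusted p = 0.000832), and with sex -1.35 (adjusted p = 0.00797). Ifit1, which binds foreign RNA, fell from 30.6 ± 8.33 to 7.36 ± 2.09 CPM. At Ifit1 the log2 fold change was -2.05 ± 0.48 SE (adjusted p = 0.0119), and with sex -1.31 (adjusted p = 0.111). Of the guanylate-binding GTPases, Gbp3 fell (log2 fold change -1.46, adjusted p = 0.00525), and Gbp10 (chr5:105215699-105239533), outside the list, had 28.1, 40.8, 40.1, 27.7 and 25.6 CPM in WT NASH and 1.28, 2.27, 2.05, 3.98 and 1.59 CPM in KO NASH. At Gbp10 the log2 fold change was -3.86 ± 0.42 SE (adjusted p = 1.73e-05), and with sex -3.44 (adjusted p = 0.000138). The list's count was 4 without WT NASH 2, 4 without WT NASH 5, 4 without KO NASH 2, 4 without KO NASH 3 and 4 without KO NASH 4, and 6 without WT NASH 4.

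Among 22 cytokines and chemokines 1 rose and 2 fell, beside 4.9% and 4.74% of all genes tested (median -0.73, -0.30 without WT NASH 4). Il1rn, the antagonist of the interleukin 1 receptor, had 5.29, 12.2, 11.9, 18.7 and 8.91 CPM in WT NASH and 67.1, 39.2, 42.4, 27.7 and 62.8 CPM in KO NASH, the KO all above the WT. At Il1rn the log2 fold change was 2.08 ± 0.36 SE (adjusted p = 0.0014), and with sex 1.99 (adjusted p = 0.0075). Cxcl9, an interferon-induced chemokine for T cells, had 10.7, 33.5, 36, 184 and 36.6 CPM in WT NASH and 7.89, 11.3, 8.88, 14.3 and 7.98 CPM in KO NASH, with WT NASH 4 far above the rest. At Cxcl9 the log2 fold change was -2.57 ± 0.75 SE (adjusted p = 0.0359). Without WT NASH 4 it was -1.54. The Cxcl9 call was lost when WT NASH 4 or KO NASH 1, 2, 3, 4 or 5 was left out (adjusted p up to 0.179). Cxcl13, which attracts B cells, fell from 13.8 ± 14.4 CPM to 0.992 ± 0.649 (log2 fold change -3.78 ± 1.17 SE, adjusted p = 0.045); it was not called with sex (-3.73, adjusted p = 0.0828) and was at -2.95 without WT NASH 4. The Cxcl13 call was lost when WT chow 3 or 4, WT NASH 2, 3, 4 or 5, KO chow 4 or KO NASH 1, 2, 3, 4 or 5 was left out (adjusted p up to 0.131). The count of 3 was 5 without WT chow 1, 5 without WT NASH 3, 1 without WT NASH 4 and 5 without KO chow 5.

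Acute-phase and iron genes had a median log2 fold change of -1.17, which was -0.73 without WT NASH 4 and -0.89 with sex. Of 25, 3 fell and 1 rose, none of them with sex as a term or with each library left out. Mt2, a metallothionein that binds zinc and copper, had 85.4, 70.4, 117, 827 and 366 CPM in WT NASH and 47.4, 25.3, 5.15, 3.79 and 40.4 CPM in KO NASH, without overlap (log2 fold change -3.58 ± 1.02 SE, adjusted p = 0.0314); it was at -2.71 without WT NASH 4. The Mt2 call was lost when WT NASH 4 or 5 or KO NASH 2, 3, 4 or 5 was left out (adjusted p up to 0.097). Tfrc, the transferrin receptor, rose (log2 fold change 1.17, adjusted p = 0.0382). The Tfrc call was lost when WT NASH 1, 2, 4 or 5 or KO NASH 1, 3 or 5 was left out (adjusted p up to 0.131). Saa1 and Saa2, the serum amyloids, stood at 163, 103, 62.1, 7471 and 294 CPM in WT NASH and 96.5, 173, 28.6, 85.1 and 71.1 CPM in KO NASH for Saa1, with WT and KO values overlapping, and neither was called (-4.15, adjusted p = 0.0764, and -4.59, adjusted p = 0.0896). The count of 4 was 7 without WT chow 4, 2 without WT NASH 2, 0 without WT NASH 4, 0 without WT NASH 5, 1 without KO NASH 1, 2 without KO NASH 2, 0 without KO NASH 3, 2 without KO NASH 4 and 0 without KO NASH 5.

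Gpnmb, a glycoprotein of lipid-laden macrophages and of activated stellate cells, was raised. It had 0.129, 0.415, 0.182, 2.06 and 0.323 CPM in WT NASH and 15.3, 3.8, 7.88, 5.08 and 16.2 CPM in KO NASH. WT NASH 4 was the highest WT library and the KO libraries were above it (log2 fold change 4.22 ± 0.76 SE, adjusted p = 0.00177; 3.43, adjusted p = 0.00714, with sex; 5.16 without WT NASH 4). Of the 13 genes of lipid-associated macrophages only Gpnmb and Lpl were called, and Trem2, which defines these cells, was not. At Trem2 the log2 fold change was 0.90 ± 0.62 SE (adjusted p = 0.378). The 11 Kupffer cell and macrophage markers summed to 582 to 1554 CPM in WT NASH, highest in WT NASH 4, and 424 to 568 CPM in KO NASH; Timd4, which marks resident Kupffer cells, fell (log2 fold change -1.41, adjusted p = 0.0408). The Timd4 call was lost when WT NASH 2, 3 or 4 or KO NASH 1, 2, 3, 4 or 5 was left out (adjusted p up to 0.112). Markers of T and NK cells summed to 9.22 to 22.8 and 3.66 to 9.91 CPM, and those of B cells to 9.87 to 108 and 4.07 to 17.5 CPM. In both, WT NASH 4 was the highest library, and the part of these cells in the cytokine and interferon results was not tested. The lipid-associated count of 2 was 1 without KO NASH 1 and 1 without KO NASH 5.

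Of 21 genes of the ER and integrated stress responses 3 rose and 2 fell (median -0.14), beside 4.9% and 4.74% of all genes tested. With sex as a term 1 of the 3 and both of the 2 were called again. Atf3, a stress-induced transcription factor, had 0.71, 1.01, 2.0, 1.03 and 2.07 CPM in WT NASH and 22.3, 2.82, 11.9, 2.44 and 22.7 CPM in KO NASH, with no overlap (log2 fold change 3.17 ± 0.71 SE, adjusted p = 0.00914), but was not called with sex as a term (2.56, adjusted p = 0.0951). Chac1, which degrades glutathione, fell (log2 fold change -2.29, adjusted p = 0.00165), and Herpud1, which takes part in ER-associated degradation, fell from 626 ± 110.3 CPM to 245 ± 82.1 (log2 fold change -1.35 ± 0.37 SE, adjusted p = 0.0264). The Herpud1 call was lost when WT NASH 4 or KO NASH 1, 2, 3 or 5 was left out (adjusted p up to 0.0827). The count of 5 was 3 without WT NASH 2, 3 without WT NASH 5, 2 without KO NASH 1, 3 without KO NASH 2, 3 without KO NASH 3 and 2 without KO NASH 5. Of 21 NRF2 targets and glutathione genes 2 rose: Srxn1, sulfiredoxin, with 36.7, 31.4, 32.3, 31 and 29.3 CPM in WT NASH and 93, 69.5, 85.1, 62.4 and 95.2 CPM in KO NASH (log2 fold change 1.33 ± 0.23 SE, adjusted p = 0.00135; 1.22, adjusted p = 0.0133, with sex), and Gsta1, a glutathione transferase near the detection limit in WT NASH (log2 fold change 4.17, adjusted p = 0.00606; 5.98 without WT NASH 2).

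In the insulin and PI3K list of 29 genes none rose and 3 fell, beside 4.9% and 4.74% of all genes tested. Igf1, the growth factor that liver secretes under growth hormone, had 697, 707, 604, 1307 and 884 CPM in WT NASH and 329, 324, 451, 386 and 325 CPM in KO NASH, the KO below the WT. At Igf1 the log2 fold change was -1.21 ± 0.25 SE (adjusted p = 0.00481), and with sex -1.35 (adjusted p = 0.00658). Of 24 nuclear receptors and liver transcription factors 1, Esrra, rose and 3 fell, beside the same shares of all genes. Among the 3 were Esr1 and the thyroid hormone receptor β gene Thrb (log2 fold change -0.67, edgeR adjusted p = 0.013). The call of Thrb was lost when KO NASH 1 was left out (adjusted p up to 0.0512), and without KO NASH 1 the list had 2 calls.

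Clock genes also differed. Arntl (BMAL1), the core activator, had 28.1, 14.4, 12.8, 26.8 and 16.3 CPM in WT NASH and 8.36, 5.56, 5.46, 5.7 and 11.5 CPM in KO NASH, the WT above the KO. At Arntl the log2 fold change was -1.42 ± 0.32 SE (adjusted p = 0.0088), and with sex -1.67 (adjusted p = 0.00967). Dbp, an output gene of opposite phase, rose from 15.7 ± 13 to 59.6 ± 18 CPM (log2 fold change 1.92 ± 0.56 SE, adjusted p = 0.036). The Dbp call was lost when WT NASH 4 or 5 or KO NASH 1, 2, 3, 4 or 5 was left out (adjusted p up to 0.083). Bhlhe41, a repressor, rose (log2 fold change 2.15, adjusted p = 0.00961). Of the 18 genes 3 rose and 2 fell, beside 4.9% and 4.74% of all genes tested. The labels give no time of day at which livers were taken, so phase and level cannot be told apart. The count of 5 was 8 without WT NASH 3, 3 without KO NASH 1 and 2 without KO NASH 5. In the cell cycle list 1 gene rose and 1 fell of 24 (median 0.55), beside 4.9% and 4.74% of all genes tested, and the count of 2 was 1 without KO NASH 2. The gene that fell was Rrm2, a subunit of ribonucleotide reductase (log2 fold change -1.62, adjusted p = 0.00876). Of 13 fetal and ductular genes 3 rose. Krt23 (chr11:99477974-99493137), a keratin induced in injured liver, had 0.71, 1.19, 0.605, 0.147 and 0.517 CPM in WT NASH and 16.8, 16.1, 17.3, 24.8 and 16.8 CPM in KO NASH. At Krt23 the log2 fold change was 4.75 ± 0.66 SE (adjusted p = 0.000263), and with sex 4.57 (adjusted p = 0.00144). H19, an imprinted fetal RNA, rose (log2 fold change 3.98, adjusted p = 0.0113) with overlapping groups.

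Further top genes under the naming rule came from no list. Aqp4, a water channel better known from brain, had 1.23, 0.771, 0.484, 0.441 and 0.646 CPM in WT NASH and 10.5, 10.4, 5.22, 16.6 and 10.02 CPM in KO NASH, without overlap. At Aqp4 the log2 fold change was 3.83 ± 0.32 SE (adjusted p = 4.73e-07), and with sex 4.08 (adjusted p = 4.48e-06). Osbpl3, a lipid-binding protein at membrane contact sites, rose from 2.12 ± 0.696 to 32.1 ± 9.39 CPM (log2 fold change 3.91 ± 0.38 SE, adjusted p = 4.71e-06), and Clstn3, whose short form acts at droplets of brown fat cells, from 1.23 ± 0.489 to 31.3 ± 26.7 CPM. At Clstn3 the log2 fold change was 4.65 ± 0.61 SE (adjusted p = 0.000143). The table does not separate the forms of Clstn3. Pnldc1 had 0.71, 0.712, 0.303, 0 and 0.387 CPM in WT NASH and 8.57, 17.3, 21.2, 25.6 and 8.16 CPM in KO NASH (log2 fold change 5.11 ± 0.60 SE, adjusted p = 3.7e-05); it encodes an RNA-trimming enzyme of the germ line. Cntnap1, an axonal adhesion protein, rose from 0.921 ± 0.494 to 13.4 ± 4.86 CPM. At Cntnap1 the log2 fold change was 3.79 ± 0.57 SE (adjusted p = 0.000468). Of lowered genes, Chic1, on chromosome X, had 17.7, 16.8, 15.7, 5.88 and 14.7 CPM in WT NASH and 0.64, 0.855, 0.869, 0.815 and 1.27 CPM in KO NASH, where the lowest WT library was WT NASH 4 (log2 fold change -3.99 ± 0.47 SE, adjusted p = 3.77e-05; -3.15, adjusted p = 0.000598, with sex), and Sult5a1, a sulfotransferase, fell from 11 ± 2.0 to 0.696 ± 0.426 CPM. At Sult5a1 the log2 fold change was -3.97 ± 0.60 SE (adjusted p = 0.000489). By the naming rule each of these top genes had to be called also with sex as a term and to show no overlap. Of the 55 named genes 38 were called also with sex as a term. The naming rule fixed part of this count. Beside the top genes, it took the 3 most raised and 3 most lowered genes called without sex only.

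Against the same contrast on chow, where 798 genes were called (5.53%), 188 of the 563 genes were called in the same direction and 3 in the other; the 2 contrasts share no library. Of the 55 named genes 29 were called on chow, all in the same direction. The difference between the diets was tested as an interaction, the log2 fold change of the NASH diet minus that of chow, and 20 of 14440 genes were called (0.139%), 3 of them among the named genes. Cidec had a change of 2.81 (SE 0.46) on chow and 6.98 on the NASH diet, an interaction of 4.17 (edgeR adjusted p = 0.0111). Aqp4 had a change of 1.06 on chow, and its interaction was 2.78 (edgeR adjusted p = 0.00499). Chic1 had -0.78 on chow and an interaction of -3.20 (edgeR adjusted p = 0.0423). Mean levels in WT and KO were 42.2 and 295 CPM on chow and 0.886 and 115 CPM on the NASH diet for Cidec. For Aqp4 they were 10.5 and 21.8 CPM on chow and 0.714 and 10.5 CPM on the NASH diet. Both genes were thus lower on the NASH diet in both genotypes. For Chic1 the means were 2.52 and 1.46 CPM on chow and 14.1 and 0.89 CPM on the NASH diet. WT chow held 5 males and KO chow 3 males and 2 females, so that sex is balanced differently on the 2 diets. With sex as a term the edgeR adjusted p of the interactions were 0.178, 0.0261 and 0.562. The slope of expression on gene length was negative, as in WT NASH 4, in WT chow 3, 4 and 5 (-0.247, -0.262 and -0.344). It was negative also in KO chow 4 and 5 (-0.254 and -0.284), and in no KO NASH library. The part of this slope in the chow values and interactions was not tested.

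The lists can be set side by side on the 2 diets, without a test of the difference for a list. Cholesterol genes had 17 of 29 lowered on the NASH diet and none called on chow, where the median was 0.21. Lipogenesis had 10 lowered on the NASH diet, and 2 raised and 2 lowered on chow. Oxidation genes had 9 raised, and 5 on chow; droplet genes had 8 and 5. Idi1, lowered on the NASH diet, had 1.07 on chow, not called, with an interaction adjusted p of 0.169. Hmgcs1 had 0.77 on chow, and its interaction was -2.87 (edgeR adjusted p = 0.0348), while that of Fasn was -2.73 (edgeR adjusted p = 0.115). Pck1 fell by 2.51 on chow, with an interaction of 0.15 (edgeR adjusted p = 0.966).

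**Figure D5:**
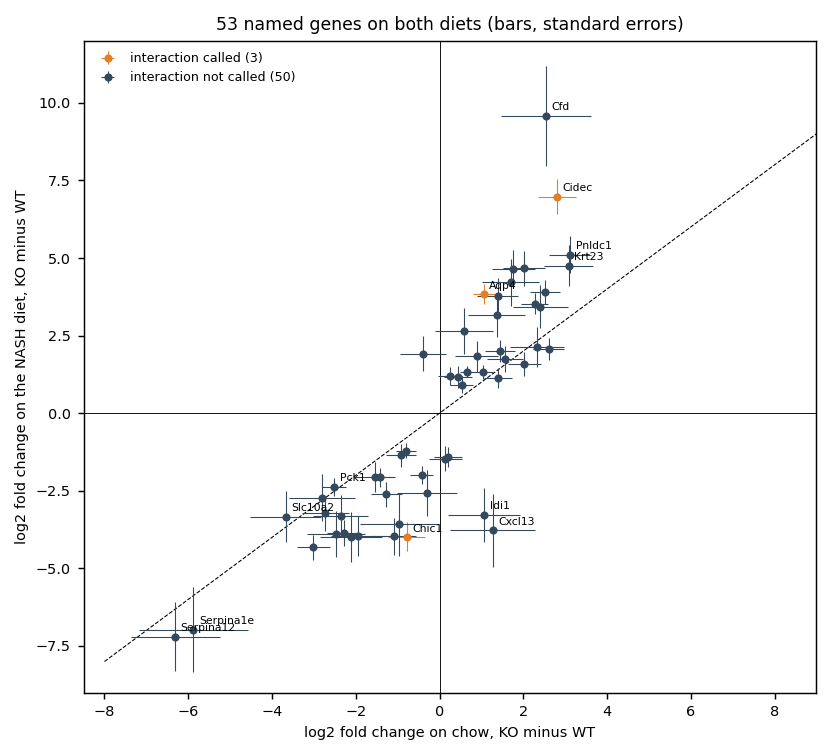
Log2 fold change of KO over WT on chow (x axis) and on the NASH diet (y axis) for 53 named genes, with standard errors as bars and the line of equal change dashed. Orange points are Cidec, Aqp4 and Chic1, the 3 genes whose interaction was called; Serpina12 and Serpina1e lie at the lower left and Cfd at the top.

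Members of gene families share sequence, and the way the counting treated shared reads is not given in the sources used here, so the values of Cyp4a, Cyp2c, Serpina1, Gbp, Akr1c, Acot, Mt, Gsta and Saa genes are uncertain to that extent. Whether counting used the strand is not given either. Of the named genes, Pnldc1, Cntnap1, Enho, Mt2, Idi1, Pfkp, Pklr, Cyp2c55, Col4a2, Pdgfra, Dbp, Arntl, Esrra and Uqcrb overlap a gene on the opposite strand in GENCODE M21. Gbp10, Pdgfra and Esrra each overlap a gene on the same strand.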

How the data were processed

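RNA-seq counts per gene symbol were deposited by the authors for 20 livers, 1 column per mouse, and were used as deposited. HISAT2 2.0.4 and GRCm38 are named in the submitters' processing notes; the counting program, annotation and strand setting were not given in the sources used here. Columns named HFD were matched to the samples titled NASH. Of 46095 symbols, 14440 passed edgeR's filterByExpr (minimum count 10), and they held 99.91% of the counts. CPM values are counts scaled to library size with TMM.

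All 20 libraries were fitted in 1 model with a term per group (edgeR 4.0.16, R 4.3.3, quasi-likelihood test, Benjamini-Hochberg adjustment over all tested genes). The second fit added sex, read from 4 Y-linked genes. Alternatives used DESeq2 1.42.0, limma 3.58.1 and other scalings, filters and library sets. The labels give each library as a separate mouse, so p-values measure the spread between mice; depth sets counting error only. Replicate numbers do not pair the samples. Scripts were tested on simulated counts.

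The gene lists and members were chosen with earlier results of these data known. The 55 named genes were Pck1, the 12 most raised and 12 most lowered genes called in both fits without overlap and with a mean of at least 5 CPM over the NASH libraries, the most raised and most lowered called member of each pathway list at that level, and the 3 most raised and 3 most lowered called without sex only. Predicted genes were passed over. Other list members serve as examples. Some genes are counted but not reported here by name. Promoters came from RefSeq (GRCm38.p6), lengths from GENCODE M21 (93.33% of tested genes matched).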

Additional observations from a re-analysis of the deposited data

Results flagged for a closer look

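In 26 of 106 groups of 5 libraries (53 genes in WT NASH and KO NASH), the highest or lowest library lay apart from the others by Dixon's criterion, where chance gives about 1 in 20 groups, or 5.3. The outlying library was WT NASH 4 in 13 of them. It was high at Serpina1e (6182 CPM), Akr1c6 (7498 CPM), Cyp2c70 (3650 CPM), Slc10a2 (496 CPM), Serpina12 (290 CPM), Cxcl9 (184 CPM), Enho (118 CPM), Fam25c (64.6 CPM), Cyp2c55 (41.2 CPM) and Gpnmb (2.06 CPM). It was low at Chic1 (5.88 CPM), Slc27a1 (2.35 CPM) and Agpat9 (1.91 CPM). This library is the male and the shallowest of its group, and the part of sex, depth and gene length in these values was not tested.

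KO NASH 4 was high at Cfd (54.4 CPM, against 3.59 to 9.43 in the other KO libraries), Herpud1 (388 CPM), Slc10a2 (26.7 CPM), Krt23 (24.8 CPM), Thrsp (18 CPM) and Sult5a1 (1.44 CPM). KO NASH 2, the female of its group, was high at Esr1 (22.5 CPM) and Enho (9.10 CPM). KO NASH 3 was high at Slc27a1 (140 CPM) and at Idi1 (16.3 CPM, against 2.26 to 3.40). KO NASH 1 was high at Uqcrc1 (26.6 CPM). WT NASH 1 was high at Etnppl (72.5 CPM) and held the single Cfd read of its group (0.0646 CPM).

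The change from WT to KO differed between the diets by the interaction test at Cidec (4.17 on the log2 scale), Aqp4 (2.78) and Chic1 (-3.20). The fold change of the first 2 was larger on the NASH diet, where their mean levels were lower than on chow in both genotypes. That of Chic1 was more negative on the NASH diet.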

How the results depend on the processing

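The 1393 calls became 876 with a mean of at least 5 CPM, 2196 with DESeq2, 3434 with limma voom, 625 with sex as a term, 2388 with the length slope, 21 in females alone, 138 when a change above 2-fold was tested and 764 with KO NASH 1 and 5 summed; leaving out each library gave 714 to 1727. In males alone, where WT NASH is 1 library, WT NASH 4, the median log2 fold change of all genes was 0.195. The 563 calls made also with sex became 342 with the CPM minimum, 1139 with DESeq2, 1092 with voom, 1533 in the 10 NASH libraries alone, 1292 with the slope, 332 with KO NASH 1 and 5 summed, and 98 to 1092 with a library left out. The 3 called interactions became 11 with DESeq2, 11 with voom, 1 with sex, 9 with the slope, 0 for a change above 2-fold (15 at an unadjusted p under 0.05) and 2 to 4 with a library left out; in NASH libraries alone or females alone the interaction has no value. A replicate block gave 1457, 304 and 1 for the 3 counts; deviations of same-numbered libraries correlated at -0.088 to 0.31, and only KO NASH 2 matched its own number best. Of the called genes, Moxd1 changed sign with voom (1.01) and without WT NASH 4 (4.11, against -9.79 without KO NASH 3), and in males alone so did Srebf1 (0.033), Slco2a1 (0.05), Cux2 (1.13) and H2-Ab1 (-0.018). All 55 named genes stayed called, in the same direction, under RLE size factors, DESeq2 and no filter on counts. They also did under a scaling that left out the 20 most abundant genes. With sex as a term 38 did, among them the top genes, for which the naming rule required it. The 3 most raised and 3 most lowered genes called without sex only could not be among the 38. When a change above 2-fold was tested 28 of the 55 stayed called, and 42 did with KO NASH 1 and 5 summed. Without WT NASH 4 it was 41, the lowest count with a library left out. In females alone KO NASH is 1 library. The cause of these differences was not tested. Genes under a few CPM in WT NASH rest on few reads, which limits the size of their fold changes.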
